A study of Homo sapiens with 6 samples.

Results

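Messenger RNA of the kidney cancer line RCC10 was compared before and after VHL was put back, using the 2 VHL-restored libraries against the 2 parental libraries of a deposited table of gene counts with 6 libraries in all. All 18273 genes with at least 1 count over the 6 libraries were tested, of 19009 in the table, and 18163 of them lie outside the hypoxia gene lists used here. RCC10 is an established line from clear cell renal carcinoma and lacks functional VHL. Parental cells carry neither engineered change. VHL-restored cells received a lentivirus that carries VHL. The other 2 libraries come from cells whose HIF-1alpha and HIF-2alpha genes were targeted by lentiviral guide RNAs followed by puromycin selection, called double-knockout cells here, and they also lack functional VHL. All cells grew in DMEM with 10% fetal bovine serum, and poly(A) RNA was sequenced. The 6 libraries include no empty-vector line and no non-targeting guide line, so a difference between the lines cannot be assigned to VHL alone. Whether each line is a clone or a pool is not given by the sources used here.

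VHL is the substrate-binding part of a ubiquitin ligase. When oxygen is present it binds the hydroxylated alpha subunits of the hypoxia-inducible factors (HIF) and marks them for destruction, so cells without VHL keep HIF targets switched on in normal oxygen. VHL is also known for roles outside HIF, among them assembly of the fibronectin matrix, maintenance of the primary cilium and binding to microtubules.

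The VHL transcript was at 38.8 and 39.5 CPM (counts scaled to a common library size) in the parental libraries, 43.3 and 47.3 CPM in the double-knockout libraries and 652 and 723 CPM in the VHL-restored libraries. The rise was 17.6-fold over parental cells, with a log2 fold change of 4.13 ± 0.07 (SE) and an adjusted p of 3.7e-29 in edgeR's quasi-likelihood test. HIF1A, which encodes HIF-1alpha, was at 69.5 and 72.9 CPM in parental and 304 and 286 CPM in VHL-restored libraries, a 4.15-fold rise (adjusted p = 1.5e-22). EPAS1, which encodes HIF-2alpha, was at 352 and 349 CPM in parental and 363 and 369 CPM in VHL-restored libraries and did not pass the test (adjusted p = 0.386). ARNT, the partner of both alpha subunits, was at 68.98 and 66.8 CPM in parental and 58.9 and 61.4 CPM in VHL-restored libraries, and its call at an adjusted p of 0.0338 was lost in some of the alternative fits given at the end. Of the 4 genes, VHL and HIF1A therefore rose, and the transcript of HIF-2alpha did not measurably change. The renal lineage factor PAX8 was at 305 and 297 CPM in parental and 416 and 399 CPM in VHL-restored libraries.

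The libraries held 22248126 to 29929116 counts. Replicates of a group had Spearman correlations of 0.993 or more, and no pair from different groups exceeded 0.963. Replicates of a group may be technical, since nothing says that they came from separate cultures, and p-values then measure only the spread between these libraries. In what follows 2 values joined by "and" are the 2 libraries of a group, first replicate first, and rose, fell, higher and lower are used of adjusted p-values below 0.05 over all genes tested in edgeR's quasi-likelihood test. Every gene said to have risen or fallen had its 2 VHL-restored libraries on one side of both parental libraries. In bulk RNA, fewer cells of a kind and less RNA per cell cannot be told apart. Of the marker lists of other cell types, leukocyte markers summed to between 61.3 and 65.9 CPM in parental and between 25.2 and 27.7 CPM in VHL-restored libraries, of which CD68, a lysosomal protein also found outside leukocytes, gave 64.5 and 60.3 CPM and 23.1 and 25.98 CPM. Endothelial markers summed to at most 3.82 CPM and the erythroid list to at most 0.0715 CPM in any of these 4 libraries. CSF1R of the leukocyte list and TEK of the endothelial list were higher, by 1.75 and 2.05 on the log2 scale. Of 9 fibroblast and pericyte markers tested, 2 were higher and 2 lower. THY1 and PDGFRB had log2 changes of 2.02 and 0.70, and ACTA2 and RGS5 of -0.68 and -0.40. DCN was at 0.0674 and 0 CPM in parental libraries and 0 in both VHL-restored ones. The sum of the fibroblast and pericyte list was 55.6 to 56.2 CPM against 51.5 to 52.3 CPM.

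Genes changed in both directions after VHL was put back, with more lower than higher among those changed at least 2-fold. At an adjusted p below 0.05, 4843 genes (26.5% of those tested) were higher and 5055 (27.7%) were lower in VHL-restored than in parental cells. Under median centring 5225 were higher and 4683 lower. Changes of at least 2-fold were seen in 1121 higher genes (6.13%) and 1535 lower genes (8.40%). The 110 tested genes of the 5 hypoxia lists, which hold oxygen-regulated readouts, HIF-2alpha-linked genes, glycolysis, angiogenic factors and the HIF pathway itself, had 77 lower and 14 higher members and a median log2 change of -1.27, against 0.00 over all genes tested. Of these 110 genes, 57 fell at least 2-fold, against 8.40% of all genes tested. They made up 3.71% of the genes lowered at least 2-fold, and the other 1478 such genes lie outside those lists.

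**Figure D1:**
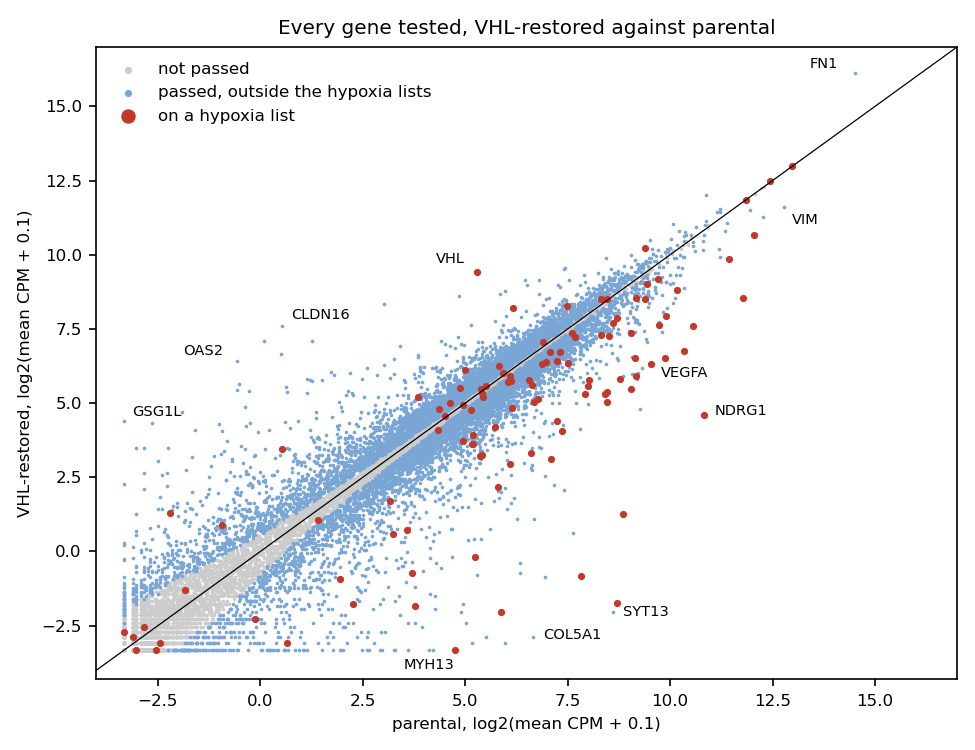
Mean level of every gene tested in parental (x axis) and VHL-restored (y axis) cells, each as log2(mean CPM + 0.1) over 2 libraries, with the line of equal levels. Red points are genes on the hypoxia lists, blue points are other genes past an adjusted p of 0.05 and grey points are the rest. Red points lie mostly below the line, and blue points lie on both sides of it.

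The direct comparison with double-knockout cells, the line in which both HIF alpha genes were targeted, tests directly where the VHL-restored line differs from it. In that comparison 5112 genes (28.0%) were higher and 5113 (28.0%) lower in VHL-restored cells. Of the 1114 genes raised at least 2-fold over parental cells outside the hypoxia lists, 777 were also higher than in double-knockout cells, 126 were lower than there and 211 did not pass that test. Of the 1478 genes lowered at least 2-fold, 759 were also lower than in double-knockout cells, 252 were higher and 467 did not pass. The 2 comparisons share the VHL-restored libraries, so these counts are a description.

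The changes were not spread evenly over the genome. With genes placed on chromosomes by symbol (12398 of 12713 genes with a mean of at least 1 CPM over the 4 libraries), whole chromosomes shifted together in VHL-restored cells. Chromosome 7 had 78.8% of its 604 expressed genes lower and 7.78% higher, with a median log2 change of -0.60. Chromosome 21 had 79.3% of 121 genes lower and a median of -0.62. Chromosomes 12 and 19 went the other way. On chromosome 12, 67.9% of 672 genes were higher (median 0.43), and on chromosome 19 65.2% of 865 (median 0.39). Chromosome 9 was raised as well (median 0.34), while chromosomes X, 13 and 10 had medians of -0.29, -0.29 and -0.26. Over all 12398 placed genes the median was -0.01, with 35.4% higher and 36.7% lower. Most lists below hold mainly expressed genes, so these shares are a closer comparison than the 26.5% and 27.7% of all genes tested. A list count near 35.4% higher and 36.7% lower does not set that list apart from other expressed genes.

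Both VHL-restored libraries showed the same shifts. On chromosome 7 the median difference from the parental mean was -0.57 in the first and -0.57 in the second, and on chromosome 12 it was 0.42 and 0.43. The second parental library differed from the first by chromosome medians of only -0.0364 to 0.0308, so the shifts were larger than the spread between replicates. Double-knockout cells had another pattern, with medians against parental cells of -0.19 on chromosome 7, -0.07 on chromosome 12, 0.17 on chromosome 19 and 0.11 on chromosome 21. The direct contrast of VHL-restored with double-knockout cells gave -0.40, 0.49, 0.21 and -0.73 for the same chromosomes.

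Some shifts covered part of a chromosome. When the expressed genes of each chromosome were cut in order into 4 equal runs, 92 in all, the run medians ranged from -0.719 to 0.529 and 42 lay beyond 0.25 in either direction, against 0 of 92 between the parental replicates. On chromosome 16 the first run had a median of -0.30 and the last one of 0.32. On chromosome 18 the second, the third and the last run had medians of -0.47, 0.40 and -0.31. The SD of the run medians was 0.297 for VHL-restored against parental cells, 0.182 for double-knockout against parental cells and 0.0239 between the parental replicates. For VHL-restored against double-knockout cells it was 0.332, with 46 of 92 runs beyond 0.25. The table holds no measure of DNA, and the cause of the shifts was not tested. A fit in which each library was also centred on the median of each run, chosen after seeing these data, called 4580 genes higher and 4649 lower, and its values are given below beside genes and lists that it moves most. That fit covered only the comparison with parental cells, so differences from double-knockout cells below are not centred by run.

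**Figure D2:**
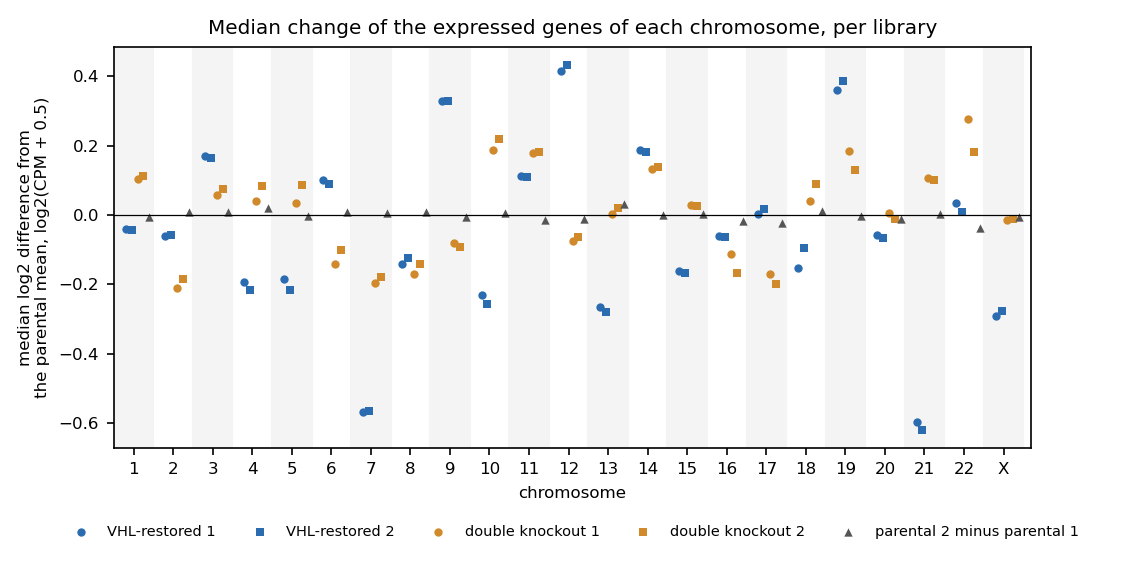
Median log2 difference from the parental mean, on the log2(CPM + 0.5) scale, of the expressed genes of each chromosome, for each VHL-restored (blue) and double-knockout (orange) library. Grey triangles give the second parental library minus the first. The blue points of chromosomes 7 and 21 lie near -0.6 and those of chromosomes 12 and 19 near 0.4, and the 2 libraries of a line lie close together.

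Interferon-stimulated genes rose together, and no other gene list examined had as large a share of higher members. Interferons are antiviral cytokines, and their receptors act through a transcription factor complex that binds a short promoter element and switches on a shared set of defence genes. Of 56 such genes tested, 50 were higher and 2 were lower, 33 rose at least 2-fold, and the median log2 change was 1.34 against 0.00 over all genes tested. Centred by chromosome run, 51 were higher and the median was 1.25. Their summed level went from 4063 and 4065 CPM in parental libraries to 6678 and 6967 CPM in VHL-restored libraries, with 4240.0 and 4275 CPM in double-knockout libraries. Against double-knockout cells, 45 of the 56 were higher and 4 lower. Double-knockout cells themselves had 34 of the 56 higher and 8 lower than parental cells, so a rise of this list was not particular to VHL-restored cells.

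The oligoadenylate synthetases are sensors that answer double-stranded RNA by activating an RNase. OAS2 and the related OASL were the most raised members of the list with at least 1 CPM. OAS2 was at 0.539 and 0.617 CPM in parental, 1.44 and 1.59 CPM in double-knockout and 80.2 and 90.7 CPM in VHL-restored libraries, 148-fold above parental cells (adjusted p = 9.6e-28). OASL, a related protein without that enzyme activity, was at 0.741 and 0.397 CPM in parental and 42.9 and 43.6 CPM in VHL-restored libraries. OAS1 and OAS3 were already well detected in parental cells and changed less, OAS3 by 1.59 on the log2 scale against the list median of 1.34. OAS1 rose from 14.5 and 13.9 to 89.7 and 107 CPM. OAS3 rose from 161 and 156 to 487 and 466 CPM. In all 4 genes the parental and VHL-restored libraries did not overlap, and each was also higher than in double-knockout cells (log2 differences of 5.82, 5.04, 2.74 and 1.13).

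Effectors that restrict viruses rose as well. RSAD2, which encodes viperin, was at 2.29 and 2.12 CPM in parental and 51.8 and 56.9 CPM in VHL-restored libraries (log2 fold change 4.61 ± 0.16 SE). IFITM1, a membrane protein that blocks virus entry, was at 0.168 and 0.265 CPM before and 7.73 and 10.04 CPM after. Both genes were nearly silent or low in parental cells. ISG15, a ubiquitin-like modifier, rose from 8.42 and 9.22 to 51.97 and 63.7 CPM. The RNA sensor DDX58 (RIG-I) rose from 30.4 and 29.2 to 120.2 and 132 CPM. MX1, a dynamin-like antiviral GTPase, rose from 22.4 and 23.9 to 87.7 and 108 CPM, and its log2 change of 2.08 was 2.63 when centred by run. Double-knockout cells did not stand in 1 place relative to these values. They were intermediate for ISG15 at 35.2 and 33.4 CPM and MX1 at 48.2 and 46.1 CPM, but above VHL-restored cells for IFI6, at 170.1 and 182 CPM against 119.6 and 146 CPM. Members outside this pattern were LGALS3BP, which fell by 0.35 on the log2 scale, and GBP2, which was at 0.236 and 0.309 CPM in parental cells and 0.0358 and 0 CPM in VHL-restored cells. The call of GBP2, at this low level, was lost with DESeq2 and when either parental library or the second VHL-restored library was left out.

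**Figure D3:**
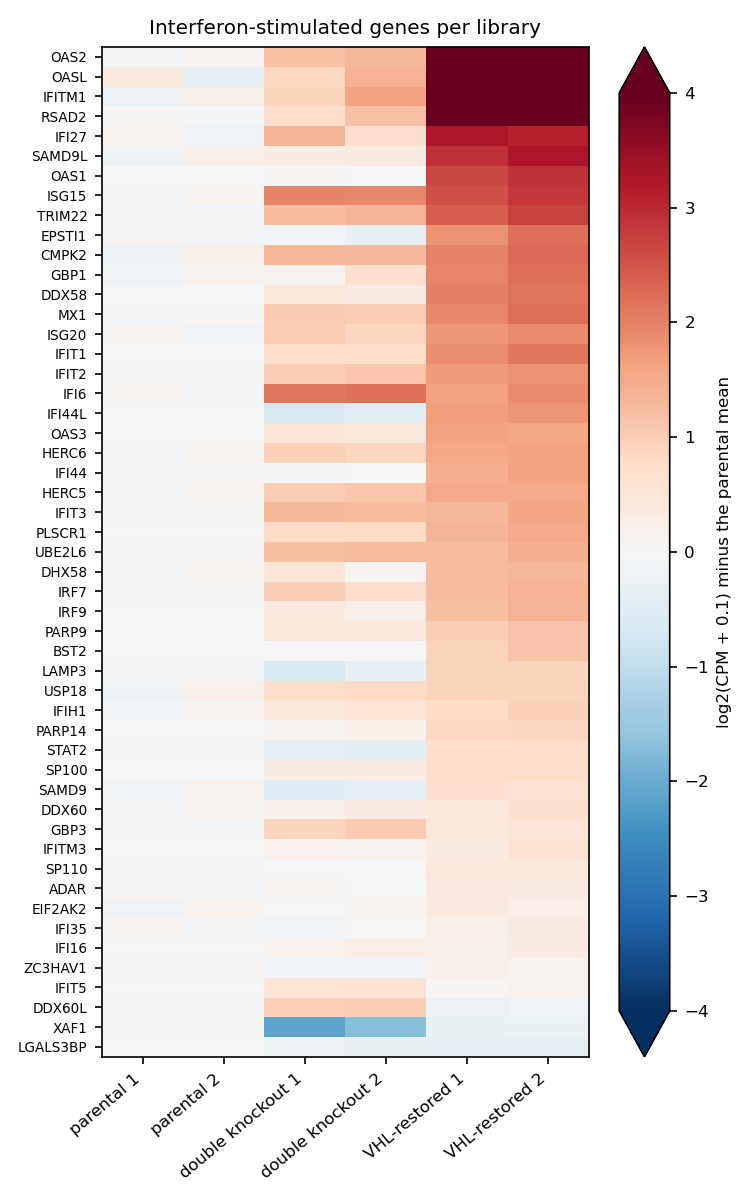
Level of 51 interferon-stimulated genes with at least 1 CPM in either group, in each of the 6 libraries, as log2(CPM + 0.1) minus the parental mean of the gene. Rows run from the largest to the smallest change, and colours saturate at 4. Both VHL-restored columns are red for nearly all rows, and the double-knockout columns are paler for most rows.

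Many promoters of these genes hold the letters of the element that the interferon-activated complex is known to bind. Its core was searched as GAAANNGAAA on both strands in the 250 bases before and 50 bases after each gene's start, from RefSeq (GRCh38.p14). Of the 43 list members with a promoter in that table, 27 (62.8%) held the core, against 3.65% of all 27305 promoters. That difference follows from which genes are on the list and does not use the changes measured here. The share was 17 of 25 among members raised at least 2-fold and 10 of 18 among the rest. Among all genes raised at least 2-fold outside the hypoxia lists it was 41 of 712 (5.76%), and among those lowered 2.61%. The raised set includes the raised interferon list members already counted, so its share is not separate from theirs. Among promoters of all genes tested the share was 3.07%. The 6 most raised members with at least 5 CPM and a core lying upstream of the start are shown as 30 bases each, 5′ to 3′ on the gene's strand, with the core (or its reverse complement) in capitals. They are shown so that the element can be compared between genes that rose together, and a match is a description, not a measured binding site.
IFITM1 (chr11:313990-314019, plus strand): caaacagcagGAAATAGAAActtaagagaa
ISG15 (chr1:1013380-1013409, plus strand): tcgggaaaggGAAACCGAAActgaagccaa
IFIT1 (chr10:89392510-89392539, plus strand): cactttccccTTTCGGTTTCcctaggtttc
IFI6 (chr1:27672266-27672295, minus strand): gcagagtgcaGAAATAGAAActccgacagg
IFI44L (chr1:78620365-78620394, plus strand): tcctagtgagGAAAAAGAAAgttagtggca
OAS3 (chr12:112938321-112938350, plus strand): agaaagaaacGAAACTGAAAgcagggaatt
The cores began 40, 107, 103, 93, 73 and 143 bases before the start in that order.

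The interferon pathway upstream of these genes split. Of 29 ligands, receptors and signalling genes, 17 were higher and 10 lower, with a median log2 change of 0.33. Of the transcription factors, STAT2 rose from 109 and 101 to 173 and 176 CPM and IRF9 from 19.3 and 19.4 to 45.03 and 49.5 CPM. Centred by run, the log2 change of STAT2 was 0.25 in place of 0.73. IRF7, a factor that amplifies the response, rose from 18.97 and 20.6 to 46.8 and 51.7 CPM. Several receptor chains fell. Of the type I receptor, IFNAR1 went from 63.8 and 74.8 to 26.4 and 28.3 CPM and IFNAR2 from 28.8 and 28.7 to 15.6 and 16.01 CPM. Of the type II and type III receptors, IFNGR2 went from 81.1 and 73.5 to 29.5 and 30.1 CPM and IL10RB from 53.6 and 57.8 to 26.8 and 25.8 CPM. All 4 receptor genes lie on chromosome 21. In place of log2 changes of -1.34, -0.86, -1.38 and -1.08 for IFNAR1, IFNAR2, IFNGR2 and IL10RB, centring by chromosome run gave -0.70, -0.22, -0.74 and -0.44, and IFNAR2, the least changed, was then at an adjusted p of 0.0232. TLR3, an endosomal sensor of double-stranded RNA, fell from 18.7 and 20.2 to 0.715 and 0.608 CPM and was at 0.786 and 0.816 CPM in double-knockout cells. Of the ligands, IFNB1 was at 0 and 0.0441 CPM in parental and 0 and 0.107 CPM in VHL-restored libraries, which is at the level of a few counts, and IFNE rose from 0.0674 and 0.0882 to 0.572 and 0.643 CPM, still below 1 CPM.

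Other immune genes moved with less agreement. Among 29 NF-kB subunits and targets, 18 were higher and 6 lower (median 0.55), and 18 of the 29 were lower than in double-knockout cells. TRAF1, an adaptor of TNF receptors, was at 4.48 and 4.72 CPM in parental, 39.4 and 41.4 CPM in VHL-restored and 214 and 187 CPM in double-knockout libraries. CSF1, the macrophage growth factor, rose from 59.4 and 57.7 to 178 and 172 CPM, while IL6 was at 1.99 and 1.59 CPM before and 1.11 and 1.61 CPM after and did not pass (adjusted p = 0.134). IL6 was at 82.7 and 79.98 CPM in double-knockout cells, so both TRAF1 and IL6 were far higher in that line. TNF had 0 counts in parental libraries and 1.29 and 0.858 CPM in VHL-restored ones, at least 18.7-fold higher against a floor of 3 counts over the group. Floors and counting intervals cover counting error only. Chemokines went both ways. CCL5, which attracts T cells, rose from 0.438 and 0.441 to 9.69 and 11.1 CPM. CXCL12 fell from 10.6 and 9.66 to 0.751 and 0.393 CPM, and CCL20 fell from 2.86 and 3.48 to 0 and 0.107 CPM.

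The 2 ligands of the checkpoint receptor PD-1 rose in both engineered lines. PDCD1LG2, which encodes PD-L2, was at 0.0337 and 0.0441 CPM in parental and 5.97 and 6.36 CPM in VHL-restored libraries, 161-fold apart (95% counting interval 44.4 to 1338). It was at 6.33 and 7.07 CPM in double-knockout cells, and the difference between the 2 engineered lines did not pass (log2 difference -0.12, adjusted p = 0.474). PDCD1LG2 lies in the first run of chromosome 9, whose median log2 difference between the engineered lines was 0.92. CD274, which encodes PD-L1 and is named after its values were seen, rose from 4.55 and 4.76 to 39.3 and 38.1 CPM. It was at 34.6 and 38.4 CPM in double-knockout cells (log2 difference 0.09, adjusted p = 0.363).

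Antigen presentation by MHC class I was mixed. Of 21 genes, 7 were higher and 11 lower (median -0.19). The immunoproteasome subunits rose, PSMB9 from 6.30 and 8.29 to 24.97 and 27.1 CPM and PSMB10 from 8.86 and 9.61 to 18.2 and 20.3 CPM, as did the peptide transporter subunit TAP2, from 24.6 and 24.6 to 45.3 and 46.5 CPM. B2M, the light chain, fell from 375 and 373 to 253 and 284 CPM. Centred by run, the log2 changes of TAP2 and B2M were 0.54 and -0.21 in place of 0.90 and -0.48. Against double-knockout cells 17 of the 21 were lower. CD74, the class II invariant chain, was at 7.75 and 7.14 CPM in parental, 1.40 and 1.64 CPM in VHL-restored and 48.7 and 47.2 CPM in double-knockout libraries.

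The most raised genes outside the hypoxia lists were at or near 0 in parental cells. GSG1L, an auxiliary subunit of AMPA receptors, had 0 counts in both parental libraries and 20.7 and 21.6 CPM in the VHL-restored ones, at least 369.6-fold higher. HHIP, a membrane protein that binds and blocks Hedgehog ligands, was at 0 and 0.0441 CPM in parental and 10.7 and 11.6 CPM in VHL-restored libraries, a ratio of 584 (95% counting interval 104 to 23101). GPR110, an adhesion receptor, was at 0.0337 and 0.0441 CPM in parental and 11.1 and 11.1 CPM in VHL-restored libraries. All 3 genes were at or near 0 in double-knockout cells, with 0 counts for HHIP and GPR110 and 0.0342 and 0 CPM for GSG1L. By the standard of at least 5 CPM in one group and no more than 3 counts over the other, 5 genes appeared after VHL was put back (these 3, MIR205 and PDCD1LG2), and of them only PDCD1LG2 was at 1 CPM or more in double-knockout cells.

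Transcripts over the locus of hsa-miR-205-5p, a microRNA of epithelial cells, rose. MIR205HG, its host transcript, was at 1.15 and 0.794 CPM in parental, 0.342 and 0.427 CPM in double-knockout and 127 and 142 CPM in VHL-restored libraries (135-fold over parental, adjusted p = 1.2e-28). Counts at MIR205 itself went from 0.0337 and 0.0882 to 19.03 and 20.8 CPM, but they come from poly(A) RNA over the host transcript and do not measure the mature microRNA. The major mature form, known for targeting the repressors of E-cadherin ZEB1 and ZEB2 in epithelial cells, is printed from RefSeq (GRCh38.p14, chr1:209432166-209432187, plus strand) with its seed, bases 2 to 8, in capitals, to show what this transcript encodes.
hsa-miR-205-5p: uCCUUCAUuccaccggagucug
ZEB1 was at 8.26 and 9.44 CPM in parental and 10.2 and 8.47 CPM in VHL-restored libraries (log2 fold change 0.09 ± 0.12 SE, adjusted p = 0.554). Centred by run its log2 change was 0.39 and passed (adjusted p = 0.00244). ZEB2 fell from 59.4 and 57.3 to 44.9 and 43.5 CPM (log2 fold change -0.40 ± 0.07 SE, adjusted p = 1.8e-05). CDH1, which encodes E-cadherin, rose from 3.57 and 3.53 to 8.51 and 8.36 CPM and had 0 counts in both double-knockout libraries.

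The 20 most raised genes outside the hypoxia lists also include CLDN16 and others of varied roles. CLDN16, the claudin of magnesium reabsorption in the thick ascending limb, was at 1.52 and 1.19 CPM in parental, 77.6 and 75.1 CPM in double-knockout and 197 and 195 CPM in VHL-restored libraries, 142-fold above parental cells. CLDN1, a barrier-forming claudin that is not among those 20, rose from 28.04 and 29.2 to 401 and 383 CPM and was at 314 and 334 CPM in double-knockout cells. None of the parental libraries came near these values. FRAS1, a basement membrane protein mutated in Fraser syndrome, rose from 0.573 and 0.617 to 54.4 and 44.7 CPM. ANK3 (ankyrin-G, which anchors membrane proteins to the spectrin skeleton) was at 0.202 and 0.265 CPM in parental, 17.7 and 15.8 CPM in VHL-restored and 12.6 and 12.9 CPM in double-knockout libraries. SDPR (cavin-2, of caveolae) was at 1.75 and 0.882 CPM in parental and 98.5 and 101 CPM in VHL-restored libraries, with 0 counts in double-knockout cells. C19orf21 (MISP, an actin-bundling protein) rose from 0.202 and 0.132 to 26.6 and 25.02 CPM. CNTN1 (contactin-1, a neural adhesion molecule) rose from 0.135 and 0.0882 to 11.4 and 11.1 CPM, and the ephrin receptor EPHB3 from 0.404 and 0.397 to 19.5 and 19.5 CPM. HMGA1, an architectural chromatin protein, rose from 2.63 and 1.98 to 139 and 134 CPM and was at 117 and 103 CPM in double-knockout cells, so CLDN16, CLDN1, ANK3 and HMGA1 were high in both engineered lines. ADAMTS15, a matrix protease, rose 56.5-fold, VSTM2L 61.2-fold and LOC643401 58.7-fold. The pseudogene MKRN9P was at 5.79 and 10.4 CPM in VHL-restored libraries, and its counts are uncertain because it has near-identical copies.

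**Figure D4:**
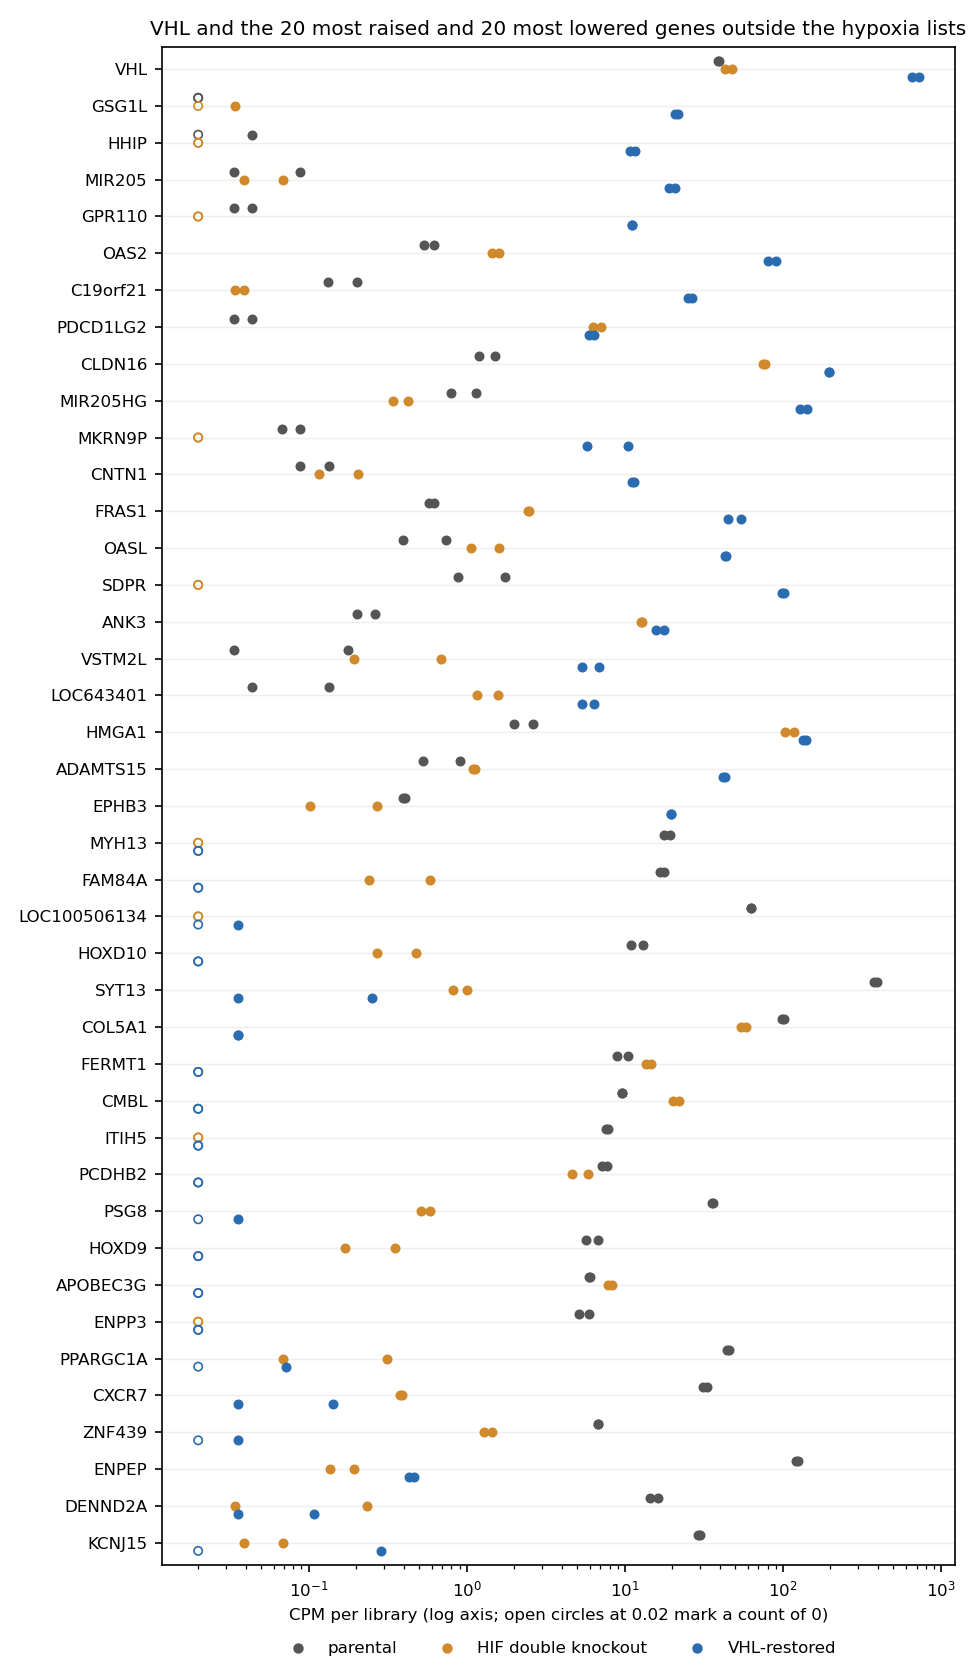
Level of VHL and of the 20 most raised and 20 most lowered genes outside the hypoxia lists in each library, in CPM on a log axis. Grey, orange and blue points are parental, double-knockout and VHL-restored libraries, and open circles at 0.02 mark a count of 0. In the upper rows the blue points lie to the right of the grey points, and in the lower rows many blue points are at 0.

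The most lowered genes fell to a few counts or none. By the same standard 22 genes went from at least 5 CPM in parental cells to no more than 3 counts over both VHL-restored libraries, and 21 of them are outside the hypoxia lists. MYH13, a muscle myosin, was at 17.7 and 19.2 CPM in parental libraries and 0 in both VHL-restored and both double-knockout libraries, at least 343-fold lower. Neighbouring posterior homeobox genes were lost together. HOXD9 was at 5.66 and 6.75 CPM in parental libraries, HOXD10 at 12.97 and 10.98 CPM and HOXD11 at 5.56 and 4.50 CPM. In VHL-restored libraries HOXD9 and HOXD10 had 0 counts and HOXD11 was at 0.0715 and 0 CPM, while double-knockout libraries held 0.171 and 0.35, 0.479 and 0.272 and 0.274 and 0.35 CPM respectively. SYT13, a synaptotagmin and the most abundant of these genes in parental cells, fell from 378 and 395 to 0.0358 and 0.25 CPM. LOC100506134 fell from 62.7 and 63.2 to 0.0358 and 0 CPM. PPARGC1A (PGC-1alpha, a coactivator of mitochondrial biogenesis) fell from 45.9 and 44.1 to 0.0715 and 0 CPM. Double-knockout cells were low for these genes too, with SYT13 at 0.821 and 1.01 CPM and PPARGC1A at 0.0684 and 0.311 CPM. PSG8 (a pregnancy-specific glycoprotein with close paralogs, hence uncertain) fell from 35.6 and 36.3 to 0.0358 and 0 CPM. The atypical chemokine receptor CXCR7 fell from 32.9 and 31.4 to 0.0358 and 0.143 CPM and the brush border peptidase ENPEP from 121 and 124 to 0.465 and 0.429 CPM. FAM84A, ITIH5, ENPP3, DENND2A and KCNJ15 fell to below 1 CPM in VHL-restored libraries, and these genes were below 1 CPM in double-knockout libraries as well.

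A smaller set was lost after VHL was put back but present in double-knockout cells. Of the 22 lost genes, 6 were at 1 CPM or more in double-knockout cells. COL5A1, a chain of type V collagen that nucleates collagen fibrils, was at 98.8 and 102 CPM in parental, 58.5 and 54.2 CPM in double-knockout and 0.0358 and 0.0357 CPM in VHL-restored libraries, a 2798-fold fall from parental cells (95% counting interval 774 to 23107). CMBL, a hydrolase, was at 9.54 and 9.57 CPM in parental, 20.2 and 22.1 CPM in double-knockout libraries and 0 in both VHL-restored libraries. FERMT1 (kindlin-1, an integrin activator) was at 10.4 and 8.91 CPM in parental and 14.6 and 13.5 CPM in double-knockout libraries, and 0 in both VHL-restored libraries. CMBL and FERMT1 were thus higher in double-knockout than in parental cells. APOBEC3G, a cytidine deaminase that restricts retroviruses and has close paralogs, was at 5.96 and 6.04 CPM in parental and 7.80 and 8.31 CPM in double-knockout libraries, and 0 in both VHL-restored libraries. PCDHB2, a clustered protocadherin, was at 7.75 and 7.19 CPM and 4.65 and 5.83 CPM there, and again 0 after VHL was put back. ZNF439 was at 6.74 and 6.79 CPM in parental, 1.44 and 1.28 CPM in double-knockout and 0.0358 and 0 CPM in VHL-restored libraries. All 6 were lower in the direct test against double-knockout cells, with ZNF439, the least different, at an adjusted p of 2.8e-10.

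Measured by abundance rather than by ratio, one gene dominated. FN1, the matrix glycoprotein fibronectin, was at 23992 and 22942 CPM in parental, 46774 and 44763 CPM in double-knockout and 76063 and 67983 CPM in VHL-restored libraries, so it rose 3.07-fold (adjusted p = 1.1e-23) and also lay above double-knockout cells (log2 difference 0.65, adjusted p = 8.0e-14). Its rise was 27.2% of the summed rises of all genes in CPM. PEG10, an imprinted retrotransposon-derived gene, came next among those outside the hypoxia lists, from 1899 and 1871 to 4390.5 and 3967 CPM, although it lies on chromosome 7, where the median gene fell. The stress-inducible chaperone HSP90AA1 rose from 1064 and 1095 to 2047 and 2185 CPM. DPYSL3, a microtubule- and actin-associated protein, rose from 175 and 169 to 753 and 745 CPM and was at 46.8 and 44.3 CPM in double-knockout cells. PHLDA1 rose from 171 and 169.6 to 735 and 747 CPM. Very abundant genes entered this group with small folds. ACTG1, a cytoplasmic actin, rose 1.23-fold. EEF2, the translation elongation factor on chromosome 19, rose 1.27-fold, but centred by chromosome run its log2 change was -0.02 (adjusted p = 0.788).

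Outside the hypoxia lists, the largest fall in abundance was that of VIM, the mesenchymal intermediate filament vimentin, from 7022 and 7020.2 to 3016 and 3210.5 CPM with 4665 and 4768 CPM in double-knockout cells. CTSD, the lysosomal protease cathepsin D, fell from 4958 and 4897 to 2474 and 2465 CPM. PSAP, the precursor of lysosomal saposins, fell from 2373 and 2276 to 1141 and 1178 CPM. SCD, the desaturase that makes monounsaturated fatty acids, fell from 2425 and 2343 to 969 and 985 CPM. The folds of these 4 genes ran from 2.00 for CTSD to 2.44 for SCD. CD24, a surface glycoprotein, fell from 1054 and 1097 to 322 and 338 CPM and was lower still in double-knockout cells, at 32.5 and 35.1 CPM. PTTG1IP was at 1114 and 1126 CPM in parental, 1097 and 1122 CPM in double-knockout and 370.3 and 375 CPM in VHL-restored libraries. It lies on chromosome 21, as does PDXK (pyridoxal kinase), which fell from 1320.5 and 1279.8 to 478 and 469 CPM, and centred by run their log2 changes were -0.87 and -0.90 in place of -1.59 and -1.46. TTYH3, on chromosome 7, fell from 900.1 and 886 to 180.2 and 155 CPM, with a log2 change of -2.42, or -1.78 centred by run. MYH9 (non-muscle myosin) and ITGA3 (an integrin chain) fell by 0.46 and 0.53 on the log2 scale.

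The keratins that changed mostly rose, while vimentin fell. Of 23 keratin and intermediate filament genes, 11 were higher and 5 lower (median 0.99). KRT8, a keratin of simple epithelia, rose from 741 and 727 to 1402 and 1506 CPM. Its partner KRT18 rose from 352 and 345 to 922 and 988 CPM. KRT7 rose from 0.674 and 0.573 to 10.7 and 12.4 CPM and KRT80 from 133 and 132 to 377 and 370.1 CPM. These type II keratins and KRT18 lie together on chromosome 12, and centred by run the log2 changes of KRT8, KRT18, KRT7 and KRT80 were 0.51, 0.98, 3.72 and 1.03, with the list's median at 0.65. KRT81 and KRT86, whose near-identical sequences make their split uncertain, rose to 16.02 and 16.3 CPM and to 1.57 and 1.89 CPM. The wider lists did not move one way. Tight junction and polarity genes had 13 higher and 6 lower of 31, cadherins and catenins 8 higher and 9 lower of 22, and the mesenchymal transition list 5 higher and 7 lower of 16.

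Matrix chains moved both ways. Of 25 collagen chains, 8 were higher and 10 lower (median -0.18, and 11 higher and 7 lower when centred by run). The uncentred shares, 32% higher and 40% lower, lie near the 35.4% and 36.7% of expressed genes placed on chromosomes. COL4A5, a basement membrane chain, rose from 0.438 and 0.397 to 10.4 and 8.93 CPM. COL16A1 rose from 0.809 and 0.529 to 10.98 and 10.7 CPM. The microfibrillar chain COL6A3 fell from 553 and 527 to 68.6 and 57.5 CPM. COL6A2, on chromosome 21, fell from 414 and 421 to 91.2 and 92.3 CPM, and its log2 change of -2.19 was -1.47 when centred by run. LAMA5, a chain of adult basement membrane laminins, rose from 89.4 and 92.00 to 556 and 445 CPM, while LAMA1 fell from 72.9 and 67.7 to 12.2 and 12.01 CPM. Among 18 integrins, ITGB3 and ITGB6 rose 2.89 and 2.44 times, and ITGA1 and ITGB8 fell by 2.14 and 2.14 on the log2 scale. Centred by run, the log2 changes of ITGA1 and of ITGB8, which lies on chromosome 7, were -1.93 and -1.50. Enzymes that hydroxylate and crosslink collagen mostly fell, with 1 of 19 higher (2 under median or upper quartile scaling) and 11 lower, and a median of -0.67. The list includes known HIF targets. LOX fell from 347 and 358 to 42.5 and 40.2 CPM. LOXL2 fell from 867 and 839 to 202 and 196 CPM. PLAT, a plasminogen activator, rose from 2.43 and 2.51 to 25.6 and 25.9 CPM. TIMP2, an inhibitor of matrix metalloproteinases, fell from 39.3 and 35.2 to 1.29 and 1.18 CPM.

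Secreted signals also moved both ways. In the Wnt list 14 of 38 genes were higher and 16 lower (median 0.14, and 11 lower when centred by run). The ligand WNT7B rose from 2.43 and 2.21 to 57.4 and 50.2 CPM. WNT5A, a non-canonical ligand, rose from 0.168 and 0.265 to 4.11 and 3.75 CPM. RSPO3, which potentiates Wnt receptors, rose from 0.505 and 0.794 to 7.80 and 7.79 CPM. All 3 were also higher than in double-knockout cells, with log2 differences of 5.05 for WNT7B and 4.14 for WNT5A. RSPO3 was at 0.0342 and 0.0777 CPM there. NKD2, an inhibitor of the pathway, fell from 9.64 and 11.03 to 0.215 and 0.286 CPM. In the TGF-beta and BMP list 17 of 39 were higher and 9 lower. INHBB, a subunit of activin B, fell from 77.1 and 77.5 to 2.18 and 1.89 CPM, and was at 74.8 and 64.9 CPM in double-knockout cells. FSTL1, a secreted glycoprotein of the follistatin family, rose from 62.8 and 62.4 to 440.3 and 446 CPM. TGFB1 fell from 310.2 and 302 to 58.8 and 57.2 CPM. Of 7 IGF binding proteins, 4 were higher and 1 lower. IGFBP3, the most abundant of them in parental cells, fell from 3520.5 and 3486 to 351 and 386 CPM. It is on the hypoxia lists and on chromosome 7, and its log2 change of -3.25 was -2.64 when centred by run. IGFBP6 rose from 24.9 and 24.4 to 114 and 131 CPM and IGFBP4 from 37.98 and 38.9 to 105 and 109 CPM. Guidance cues rose in NTN4, from 5.80 and 6.13 to 73.1 and 71.8 CPM, and SEMA3F, from 8.19 and 7.94 to 81.4 and 75.6 CPM.

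Ligands and targets of receptor tyrosine kinases were no more uniform. TGFA, an EGFR ligand and known HIF target, fell from 569.5 and 557 to 93.8 and 87.7 CPM. AREG, another EGFR ligand, rose from 0.101 and 0.132 to 2.58 and 2.18 CPM. AREG is on the hypoxia lists, as the 1 gene of 22 in the HIF-2alpha-linked list that rose at least 2-fold, while 16 fell at least 2-fold. EGFR itself, on chromosome 7, fell from 378 and 377 to 187 and 154 CPM, with a log2 change of -1.14, or -0.53 centred by run. KITLG, the ligand of KIT, rose from 27.7 and 28.8 to 156 and 147 CPM. The insulin receptor adaptor IRS2 fell from 576 and 591 to 58.02 and 54.4 CPM. Of 21 feedback and output genes of the ERK pathway 11 were higher and 6 lower (median 0.72), with 3 lower when parental replicate 1 was left out. ETV4, a transcription factor induced by ERK, rose from 1.89 and 2.07 to 8.62 and 7.40 CPM. Of the ERK inhibitors, SPRED3 rose from 1.48 and 1.90 to 10.3 and 8.97 CPM and SPRY1 fell from 1.89 and 1.28 to 0.0358 and 0.0715 CPM. YAP and TAZ targets did not lean, with 9 higher and 9 lower of 28, and included ANKRD1, at 107 and 104 CPM in parental, 27.5 and 26.3 CPM in VHL-restored and 503 and 501 CPM in double-knockout libraries.

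Genes of the lysosome and of autophagy fell together. Of 50 tested, 36 were lower and 9 higher, 14 fell at least 2-fold, and the median was -0.60. Centred by chromosome run, 36 were lower and 5 higher, and the median was -0.60. Their summed level was 16453 and 16091 CPM in parental and 10820.2 and 11086 CPM in VHL-restored libraries. MITF, a transcription factor of lysosomal genes, fell from 71.4 and 67.1 to 5.69 and 6.08 CPM. RRAGD, a GTPase that signals amino acids at the lysosome, fell from 64.5 and 64.8 to 2.93 and 2.32 CPM. Among the hydrolases, CTSF fell 5.20-fold, to 7.80 and 7.97 CPM. The mitophagy receptor BNIP3, which is also a known HIF target, fell from 162 and 167 to 15.6 and 17.3 CPM. Against double-knockout cells 34 of the 50 were lower and 8 higher. That line itself had 27 of the 50 lower and 9 higher than parental cells, so a fall of this list was not particular to VHL-restored cells. Of the factors related to MITF, TFEB rose from 5.22 and 5.29 to 7.40 and 8.68 CPM and TFE3 fell by 0.26 on the log2 scale, and neither call held when centred by run (adjusted p = 0.0994 and 0.158).

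The cholesterol and NRF2 lists had more lower than higher members. Cholesterol synthesis and uptake had 16 of 26 lower and 4 higher (median -0.27), with INSIG1, the sterol-sensing brake of the pathway, falling from 670.3 and 694 to 144 and 144 CPM (log2 change -2.24, or -1.69 centred by run, on chromosome 7). Double-knockout cells had 22 of the 26 lower and 2 higher than parental cells. Relative to double-knockout cells, 12 were higher and 6 lower in VHL-restored cells. The NRF2-regulated and glutathione list had 22 of 36 lower and 7 higher (4 higher when centred by run). Its most lowered member was ABCC2, a conjugate export pump, from 174 and 168 to 3.86 and 4.25 CPM. TXNRD1 (thioredoxin reductase) fell from 578 and 592 to 227 and 217 CPM and was at 999.8 and 1027 CPM in double-knockout cells. Without parental replicate 1 the lower count of that list was 14. Of the amino acid stress genes, the glycoprotein hormone STC2 fell from 523 and 525 to 44.7 and 44.9 CPM. The pseudokinase TRIB3 fell from 589 and 598 to 63.8 and 64.7 CPM, and the amino acid transporter SLC7A5 from 914 and 899.9 to 277 and 259.8 CPM. PLIN2, which coats lipid droplets, fell from 950.0 and 937 to 90.7 and 92.9 CPM. Nuclear genes of the respiratory chain had 29 of 76 higher and 16 lower with a median of 0.08, and 42 of the 76 were lower than in double-knockout cells.

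Replication and ribosome genes rose by small amounts. Of 41 DNA replication genes, 30 were higher and 6 lower (median 0.51), and only 1 of them, the helicase subunit MCM3, rose at least 2-fold, from 231 and 214 to 499 and 509.6 CPM. Centred by run, 28 were higher and the median was 0.32. Mitotic genes did not follow, with 10 higher and 15 lower of 40, and 14 higher and 7 lower when centred by run. Under median centring 14 were higher and 10 lower. The p53-regulated list had 22 of 32 higher, among them MDM2, from 163 and 173 to 332 and 319 CPM, and C12orf5 (TIGAR), from 14.6 and 15.2 to 72.97 and 73.8 CPM. Double-knockout cells had 25 of the 32 higher and 4 lower than parental cells. Relative to double-knockout cells, 9 were higher and 17 lower in VHL-restored cells. The log2 change of MDM2, on chromosome 12, was 0.96, or 0.64 centred by run. Cytosolic ribosomal proteins had 34 of 56 higher and 2 lower (6 lower without VHL-restored replicate 2 and 0 without any other single library; median 0.22), and 29 higher with a median of 0.16 when centred by run. Ribosomal protein counts are uncertain because of their many pseudogenes. Ribosome assembly factors had 19 of 30 higher, but 23 of the 30 were lower than in double-knockout cells, as with NOP2 at 73.8 and 68.3 CPM in parental, 174 and 179.9 CPM in VHL-restored and 238 and 208 CPM in double-knockout libraries. NOP2 lies on chromosome 12, and its log2 change from parental cells was 1.32, or 0.83 centred by run. Proteasome subunits showed 8 higher and 13 lower of 33 with a median of -0.06 against parental cells, with 4 higher when centred by run or without either parental library or VHL-restored replicate 2, and 8 lower without parental replicate 1. Under median centring 12 were higher and 10 lower. Against double-knockout cells 27 of the 33 proteasome subunits were lower.

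Lists for the structures that VHL is known to serve outside HIF gave mixed counts. Of 44 primary cilium genes, 20 were lower and 9 higher (median -0.28), and 3 fell at least 2-fold. DYNC2H1, the motor of retrograde transport in the cilium, fell from 36.5 and 39.8 to 18.2 and 18.4 CPM. Relative to double-knockout cells 23 of the 44 were higher and 9 lower. Those cells themselves had 33 of the 44 lower and 4 higher than parental cells. Of 23 tubulin and microtubule genes 10 were lower and 6 higher, with 4 higher when centred by run. The alpha-tubulin TUBA1A fell from 116 and 107 to 10.6 and 12.4 CPM and MAP1B, a microtubule-binding protein, from 171 and 165 to 20.5 and 17.5 CPM. In the Hedgehog pathway, which signals through the cilium, GLI1 rose from 1.18 and 0.706 to 5.19 and 4.90 CPM and the receptor PTCH1 fell from 18.5 and 18.2 to 15.3 and 15.04 CPM. Both were named after their values were seen, beside the rise of HHIP.

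The clotting and metal-handling lists were mixed, with more lower than higher members. Of 28 complement and coagulation genes 5 were higher and 11 lower (median -0.16). F3, tissue factor, which starts coagulation, was at 617 and 609 CPM in parental, 86.9 and 83.5 CPM in double-knockout and 27.5 and 27.7 CPM in VHL-restored libraries. PROS1 (protein S, an anticoagulant) fell from 113 and 117 to 10.1 and 12.2 CPM. PROCR, the endothelial protein C receptor, fell from 21.6 and 21.8 to 3.65 and 3.47 CPM, and was at 28.99 and 29.4 CPM in double-knockout cells, above the parental level. The fibrinogen chain FGB went the other way, from 0.438 and 0.485 to 4.61 and 5.86 CPM. Of 29 iron and copper genes 7 were higher and 13 lower (median -0.34). CP (ceruloplasmin, a copper-carrying ferroxidase and known HIF target) fell from 222 and 230.4 to 0.429 and 0.5 CPM and was lower than in double-knockout cells (log2 difference -1.05, adjusted p = 0.00818). TFRC, the transferrin receptor, fell from 801 and 794 to 461 and 431 CPM, while double-knockout cells held 1028 and 1075 CPM. ACO1, the iron-responsive aconitase, rose from 139.5 and 136 to 212 and 214 CPM (log2 change 0.63, or 0.23 centred by run, on chromosome 9).

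Several genes differed in opposite directions from parental cells in the 2 engineered lines. PTGIS (prostacyclin synthase) was at 23.8 and 25.98 CPM in parental, 168 and 162 CPM in double-knockout and 1.61 and 1.57 CPM in VHL-restored libraries, with a log2 difference between the engineered lines of -6.69 (adjusted p = 1.3e-29). CDKN1C (p57, a CDK inhibitor) was at 6.37 and 6.79 CPM in parental, 16.1 and 17.4 CPM in double-knockout and 2.22 and 2.79 CPM in VHL-restored libraries. CCND1 (cyclin D1) was at 574 and 577 CPM, 744 and 737 CPM and 379 and 365 CPM in the same order, so it fell after VHL was put back. Its relative CCND2 rose from 0.371 and 0.573 to 13.8 and 12.2 CPM. The wider list of G1 cyclins, kinases and inhibitors had 9 of 21 higher and 5 lower, but 3 higher and 8 lower when centred by run. NOTCH1, a receptor, rose from 40.2 and 38.99 to 71.3 and 62.1 CPM and was at 21.98 and 19.8 CPM in double-knockout cells, and its log2 change of 0.75 was 0.34 when centred by run. Of the Notch targets, HES1 rose from 8.42 and 8.51 to 18.4 and 19.2 CPM and NRARP from 2.90 and 2.07 to 8.76 and 9.79 CPM, and the list as a whole had 5 of 20 higher (3 without parental replicate 2) and 7 lower. DNMT1, the maintenance DNA methyltransferase, rose from 216 and 208 to 419 and 397 CPM (log2 change 0.94, or 0.58 centred by run), within a list of 28 chromatin enzymes with 11 higher and 8 lower. In fatty acid oxidation, where 7 of 33 were higher and 15 lower, the thiolase ACAA2 fell from 33.6 and 32.8 to 2.68 and 2.72 CPM, beside the loss of PPARGC1A described above.

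Kidney identity genes moved both ways. Renal transcription factors had 8 higher and 12 lower of 28, with the bile acid receptor NR1H4 falling from 19.8 and 18.2 to 3.11 and 3.22 CPM and the repressor ZHX2 from 243 and 228 to 52.7 and 53.1 CPM. Of 43 tubule transporters and markers 10 were higher, all at least 2-fold, and 18 were lower, 11 of them at least 2-fold. Shares were 28.6% higher and 42.9% lower for the transcription factors and 23.3% and 41.9% for the tubule list. Among expressed genes placed on chromosomes they were 35.4% and 36.7%. The tubule list had a median log2 change of 0, and 25 of its 43 tested members reached 1 CPM in either group. KL (klotho) fell from 100.02 and 98.2 to 7.23 and 5.93 CPM. The urate transporter SLC22A11 fell from 34.9 and 32.5 to 1.11 and 1.32 CPM and MME (neprilysin) from 63.9 and 63.7 to 10.4 and 9.79 CPM. The phosphate transporter SLC17A1 rose from 0.202 and 0.573 to 3.93 and 3.79 CPM. For comparison, the hypoxia readouts that VHL is best known for fell. NDRG1 was at 1860.1 and 1756 CPM in parental and 24.4 and 23.98 CPM in VHL-restored libraries. VEGFA, the angiogenic factor, fell from 751 and 728 to 82.02 and 75.9 CPM.

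**Figure D5:**
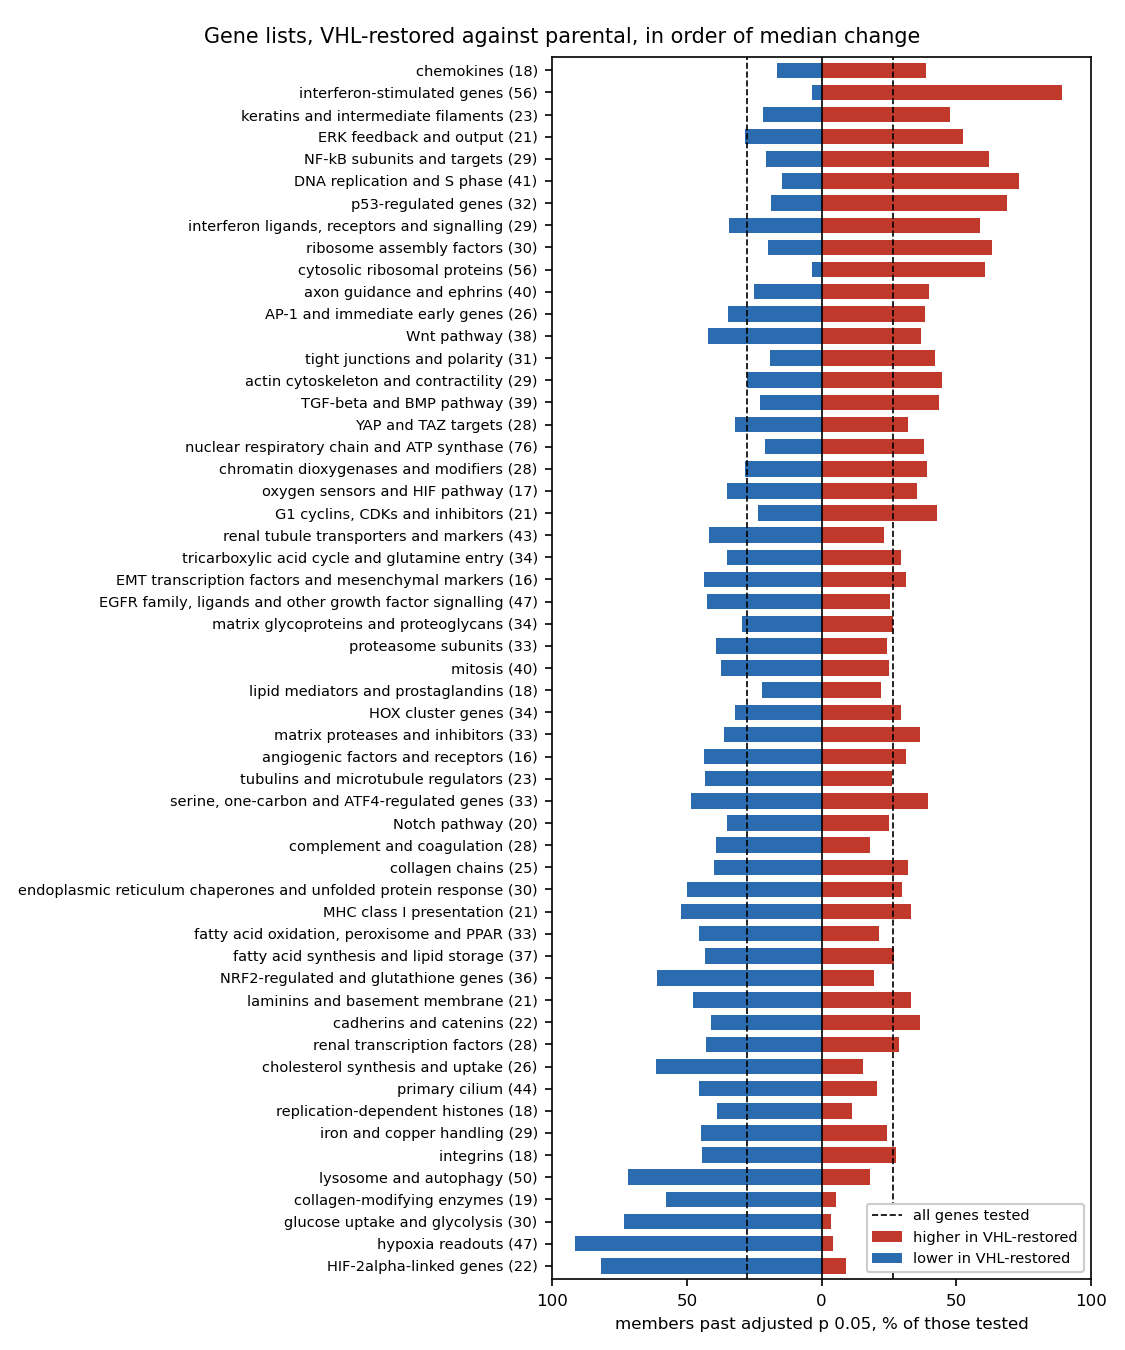
Share of the tested members of each of 55 gene lists that were higher (red) or lower (blue) in VHL-restored than in parental cells at an adjusted p below 0.05, with the number tested in brackets and lists ordered by median change. Dashed lines give the shares over all genes tested, 26.5% higher and 27.7% lower. Among expressed genes placed on chromosomes the shares were 35.4% and 36.7%. Interferon-stimulated genes reach furthest to the right and the hypoxia readouts furthest to the left.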

How the data were processed

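Poly(A) RNA of 6 RCC10 libraries, 2 each of parental, double-knockout and VHL-restored cells, was sequenced. The authors deposited 1 table of whole-number counts per gene symbol. The tools named in the submitters' processing notes are limma 3.58.1, featureCounts 2.0.8, HISAT2 2.2.1, Trimmomatic 0.39 and FastQC 0.74, and per the submitters' processing notes builds hg38 and hg19 were involved, with no role stated. The deposited table calls its counts normalized, but the column totals differ (22248126 to 29929116) and every small whole number occurs, so the values were treated as raw counts. The sources used here do not give count settings, strand use or handling of multiply mapped reads, so overlapping genes and close paralogs are uncertain.

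From the counts, genes with at least 1 count were fitted with edgeR 4.0.16 (R 4.3.3): TMM scaling, a model of 3 group means over all 6 libraries, the quasi-likelihood test with a prior count of 0.125, and Benjamini-Hochberg adjustment over 18273 genes at 0.05. CPM are counts scaled to a common total after TMM. The biological coefficient of variation was 4.41%. Where a group had no count, a fold is a bound against 3 counts over the group, and with 1 to 3 counts it carries an exact 95% interval. The fit was tested on simulated data. Alternatives were DESeq2 1.42.0 with its size factors, limma-voom (limma 3.58.1), median and upper quartile scaling, filterByExpr (14131 genes), the compared groups alone, the replicate number as a block, each library left out, and centring by chromosome run. Replicates differed by more than counting error, with chi-square values per degree of freedom of 2.65, 4.86 and 6.89 in parental, double-knockout and VHL-restored cells. Chromosomes and gene order came from RefSeq (GRCh38.p14) by symbol, for 18280 of 19009 genes.

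The compared lines, the gene lists and the searched promoter element were chosen with earlier results of these data known. Genes named were VHL, HIF1A, EPAS1 and ARNT, then from the 20 most raised and 20 most lowered and the 10 with the largest rise and 10 with the largest fall in CPM outside the hypoxia lists (adjusted p below 0.05, libraries not overlapping, at least 5 CPM in the higher group), and from up to 5 members per list with at least 1 CPM and the largest change. Genes named outside this rule, after their values were seen, were CD274, CD68, DCN, DDX58, EGFR, GBP2, GLI1, IFI6, IFNAR2, IFNB1, IFNE, IL10RB, IL6, IRF9, ISG15, LGALS3BP, MDM2, MX1, OAS1, OAS3, PAX8, PTCH1, STAT2, TFE3, TFEB, ZEB1 and ZEB2. IFIT1 and IFI44L were named for the printed promoter windows. Some genes that the rule names are not reported here.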

Additional observations from a re-analysis of the deposited data

How the results depend on the processing

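The counts of genes higher and lower kept within 1.5 times the reported value under every alternative run. Leaving out 1 library gave 3855 to 4715 genes higher and 4036 to 4956 lower than in parental cells, 987 to 1076 higher and 1352 to 1458 lower at least 2-fold outside the hypoxia lists, and 4443 to 4807 higher and 4576 to 4872 lower than in double-knockout cells. Where 1 library of a group remained, it was assumed to vary like the other groups. DESeq2 called 4213 genes higher and 4447 lower than in parental cells, and limma-voom 4998 and 5212. No scaling moved the median of expressed genes by more than 0.05 on the log2 scale.

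Replicate numbers are shared by the groups in the labels, and deviations of same-numbered libraries correlated at 0.26 for parental and double-knockout cells but at -0.01 for parental and VHL-restored and 0.01 for double-knockout and VHL-restored cells, so the numbers were not taken to pair the libraries. With the replicate number as a block, 4967 genes were higher and 5181 lower than in parental cells, 1093 and 1461 at least 2-fold outside the hypoxia lists, and 5214 higher and 5244 lower than in double-knockout cells.

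Centring each library on the median of each chromosome run, an alternative chosen after seeing the data, gave 1023 genes higher and 1356 lower at least 2-fold outside the hypoxia lists. Of 336 genes named by the rule, 325 kept their direction and their side of the threshold, 10 no longer passed (ARNT, HEY1, ANLN, HIST2H2BE, MDH2, STEAP2, PSMA2, KDM5A, RGS5 and PPIA) and EEF2 reversed, from 0.34 to -0.018 (adjusted p = 0.788). In the other alternatives the calls lost were those of ARNT, HLA-DMA, STEAP2, LAMA4, HIST1H3D and HIST2H2BE. Counts near the floor of 3 limit folds of silent genes to bounds or wide intervals.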
